A study of Mus musculus with 15 samples.

Results

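Bfsp1, Bfsp2, Vim and Nes encode the 4 intermediate filament proteins described here: the beaded filament pair filensin and phakinin, vimentin and nestin. They were chosen by gene symbol from the 14615 symbols of the deposited expression table, and all 4 passed the filter on low values and are among the 14532 genes tested. RNA-seq of the mouse lens at 4 embryonic stages (E10.5, E12.5, E14.5, then E16.5) was set against RNA-seq of whole embryos (whole body), which the study used as the reference for lens-enriched expression. There were 3 libraries in each of the 5 groups, 15 in all. Levels are FPKM, that is fragments scaled by transcript length and library size, summed over the transcripts of a gene.

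All animals were wild type embryos of the C57BL/6NTac strain, and no treatment is named. A lens library pooled dissected lenses, 50 of them at E10.5, 29 for a library of E12.5, 18 for E14.5 and 17 for E16.5, and the labels describe the libraries of a stage as biological replicates. The whole-body libraries carry the age range E10.5-12.5, and how embryos of different days went into a library is not given. Whole body therefore covers no embryo as old as the E14.5 and E16.5 lenses, and tissue and age cannot be told apart in those comparisons. In these bulk samples, a change in the number of expressing cells and a change in RNA per cell cannot be told apart either.

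Intermediate filaments are ropes of coiled-coil proteins that give cells mechanical strength. Epithelial cells build them from keratins, mesenchymal and many other cells from vimentin, and neural and other progenitors add nestin to vimentin. Lens fibre cells, the elongated cells that fill the lens behind its front epithelium, have a filament of their own: filensin and phakinin assemble into the beaded filament, which associates with alpha-crystallin and the fibre cell membrane, and mutations in either gene cause cataract.

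Lens identity was checked on markers. Of 9 of them none was under 1 FPKM at any lens stage, and their summed level ran from 1103 to 1285 FPKM at E10.5 and from 117084 to 144614 at E16.5, against 58.8 to 59.3 in whole body. Markers of other tissues were present to differing degrees. The sum of 10 periocular mesenchyme markers was 2828 FPKM in E10.5 replicate 3 against 385 and 397 in the other E10.5 libraries, and 1213 in E12.5 replicate 1 against 442 and 535. At E14.5 and E16.5 it lay between 186 and 248. The excess in E10.5 replicate 3 was in Col1a1, Col1a2, Col3a1 and Lum, while Foxc1, Twist1 and Prrx1 were lower there than in the other E10.5 libraries. Results were recomputed without those libraries, a choice made after the data had been seen.

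Against whole body, both beaded filament genes were higher at every lens stage, Nes was lower at every stage, and Vim was lower at E10.5 and higher from E12.5 on. Calls rest on a limma fit to all genes with a Benjamini-Hochberg adjusted p under 0.05. At E10.5, 2 of the 4 were higher and 2 lower, beside 24.6% of all genes higher and 31.2% lower. At E12.5 3 were higher and 1 lower, beside 32.3% and 37.1%, and the same held at E14.5 beside 35.7% and 42.6% and at E16.5 beside 36.8% and 43.4%.

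Between lens stages, 3 of the 4 rose from E10.5 to E12.5, beside 29.5% of all genes that rose and 26% that fell. From E12.5 to E14.5, 2 rose and 1 fell, beside 21.2% and 22.4%. From E14.5 to E16.5, again 2 rose and 1 fell, beside 5.97% and 4.03%. Over the whole span 3 rose and 1 fell, beside 37.2% and 36.7%, and the F test over the 4 lens stages called all 4, beside 77.3%. With 21.2% to 43.4% of genes on each side in every comparison but the step from E14.5 to E16.5, these counts set the members little apart, and the sizes and time courses carry the description.

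**Figure D1:**
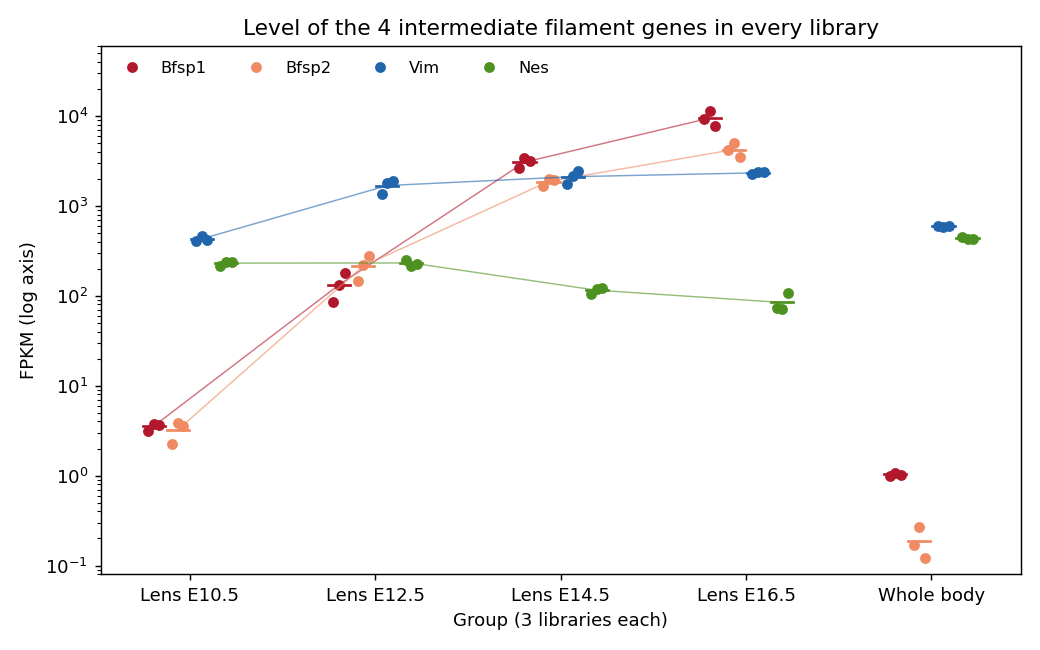
FPKM (log axis) of Bfsp1, Bfsp2, Vim and Nes in each of the 15 libraries, with a horizontal bar at each group mean and lines joining the lens means. Bfsp1 and Bfsp2 climb from means of 3.54 and 3.22 at E10.5 to 9463 and 4226 at E16.5, Vim reaches 1681 by E12.5, and Nes drops from 232 at E12.5 to 84.2 at E16.5.

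Bfsp1 encodes filensin, the larger partner of the beaded filament (chr2:143826528-143863173 in mm10, minus strand). Its level was 3.16, 3.79 and 3.68 FPKM in the E10.5 libraries and 85.8, 133 and 178 at E12.5. At E14.5 it was 2622, 3396 and 3151 FPKM, and at E16.5 9344, 11291 and 7753. The whole-body libraries stood at 1.0, 1.08 and 1.01 FPKM. No 2 groups overlapped, and the order was whole body, E10.5, E12.5, E14.5, E16.5.

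Bfsp1 rose at every step of the series. The mean went up 37.4-fold from E10.5 to E12.5, 23.1-fold to E14.5 and 3.10-fold to E16.5, or 2671-fold in all. On the log2(FPKM + 1) scale, which understates changes of low values, the steps were 4.82 ± 0.20 (SE), 4.57 ± 0.20 and 1.62 ± 0.20, with limma adjusted p of 8.95e-11, 9.34e-10 and 0.000115. The last step shrank to 0.97 after quantile normalization (adjusted p = 0.00367). Among the 14532 genes, the rise from E12.5 to E14.5 was the 8th highest. By level, Bfsp1 moved from rank 11346 at E10.5 to rank 1239, 29 and 13 at the later stages, among tested genes, which leave out the crystallins Cryaa and Cryba1. Against whole body the log2 difference grew from 1.16 ± 0.20 (adjusted p = 0.000157) at E10.5 to 12.17 ± 0.20 (5.11e-16) at E16.5.

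The RefSeq promoter table (GRCm38.p6) gives a start for Bfsp1 that matches the GENCODE vM21 start of its most abundant transcript. The 250 bases before it are printed because Bfsp1 climbed more than the other members. Capitals mark the only match to TGCTGA, the half-site of the lens factor Maf (here on the other strand, TCAGCA), 187 bases before the start.
Bfsp1 upstream, chr2:143863174-143863423, minus strand: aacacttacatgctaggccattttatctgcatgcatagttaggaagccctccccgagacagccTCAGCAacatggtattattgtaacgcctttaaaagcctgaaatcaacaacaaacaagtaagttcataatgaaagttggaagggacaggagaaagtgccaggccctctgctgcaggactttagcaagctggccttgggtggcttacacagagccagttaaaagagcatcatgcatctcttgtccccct
That half-site occurs on either strand in 16.1% of 32817 such windows, so a match is common. The letters of a heat shock element core (GAANNTTC, in 6.69% of windows), a Sox site (AACAAT, 9.42%), a TATA box (TATAAA, 12.4%) and a CCAAT box (CCAAT, 33.8%) were not in this window on either strand, and the 1 match overlapped no other. The Nes window also held 1 Maf half-site, 144 bases before its start, and none of the other motifs. Use of either site was not tested. For Bfsp2 the RefSeq start lies 31244 bases from the GENCODE start, so its window is not shown.

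Bfsp1 was listed as 3 transcripts, of which a pair carried nearly all of it. The leading one (ENSMUST00000028907, 2372 bases) made up 59.7% ± 8.62 of the gene at E12.5, then 64.2% ± 0.938 and, by E16.5, 65.0% ± 0.403 (SD, n = 3). The other form (ENSMUST00000099296, 2160 bases) made up 39.9% ± 8.57, 35.3% ± 1.17 and 34.7% ± 0.483. Both rose from E10.5 to E16.5 in the fit over 46569 transcripts, the leading one by 10.6 ± 0.19 and the other by 11.1 ± 0.36 on the log2 scale. The share of all transcripts called over this span was not computed. At E12.5, replicate 1 was the low library for the shorter form, at 30.4% against 46.9% and 42.5%. The shorter transcript begins further downstream and carries 18 extra coding bases, 6 codons, at the start of exon 5. They are shown in capitals because they are the coding difference between the forms.
Bfsp1 exon 5 start, chr2:143841782-143841799, minus strand: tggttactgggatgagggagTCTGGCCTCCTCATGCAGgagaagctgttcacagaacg

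Bfsp2 encodes phakinin, the smaller partner (chr9:103424924-103480420, minus strand). It stood at 2.24, 3.84 and 3.59 FPKM at E10.5 and at 144, 221 and 276 at E12.5. At E14.5 the values were 1646, 1988 and 1959 FPKM, and at E16.5 4221, 4938 and 3517. Whole body held 0.170, 0.270 and 0.120 FPKM. The groups kept the same order as for Bfsp1 with no overlap, and the library that was lowest or highest within a lens stage was the same for both genes at all 4 stages.

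The rise of Bfsp2 came earlier than that of Bfsp1. Its mean went up 66.3-fold from E10.5 to E12.5, then 8.73-fold and 2.27-fold, or 1311-fold in all. The log2 steps were 5.64 ± 0.20, 3.16 ± 0.20 and 1.17 ± 0.20 (limma adjusted p of 2.07e-11, 4.83e-08 and 0.00195). Quantile normalization brought the last one to 0.76 (adjusted p = 0.0142). By level it passed from rank 11485 to rank 632, 55 and 25. Its log2 difference from whole body was 1.81 ± 0.20 (adjusted p = 2.24e-06) at E10.5, where a pseudocount of 0.1 in place of 1 gave 3.53, and 11.79 ± 0.20 (8.95e-16) at E16.5. A transcript of 1666 bases made up at least 98.6% of Bfsp2 in every lens library from E12.5 on, and at E10.5 from 52.1% to 78.6%.

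The ratio of Bfsp1 to Bfsp2 within a library does not depend on library scaling. It was 1.41, 0.987 and 1.03 at E10.5, then 0.595, 0.603 and 0.646 at E12.5, where Bfsp2 exceeded Bfsp1 in 3 of 3 libraries. At E14.5 the ratio was 1.59, 1.71 and 1.61, and at E16.5 2.21, 2.29 and 2.20, with Bfsp1 the higher in all of them. The stages did not overlap in these ratios. At E10.5 the ratio rests on low levels, and Bfsp2 there includes a transcript of 743 bases at 0.480, 1.64 and 1.72 FPKM. Without it Bfsp2 stood at 1.76, 2.20 and 1.87 FPKM, against 3.16, 3.79 and 3.68 for Bfsp1. The near-equal levels at E10.5, and the place of E10.5 below E14.5, thus depend on that transcript. Over the 12 lens libraries the log2 ratio of FPKM + 1 differed between stages (F = 155, exact permutation test over 15400 assignments, p = 6.5e-05, the smallest these can give, and the same after adjustment over 2 ratios). With only the transcripts that match the reference, the same permutation test gave F = 651 and p = 0.00019. In whole body the ratio of 6.10 ± 2.22 rests on values near or under 1 FPKM.

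**Figure D2:**
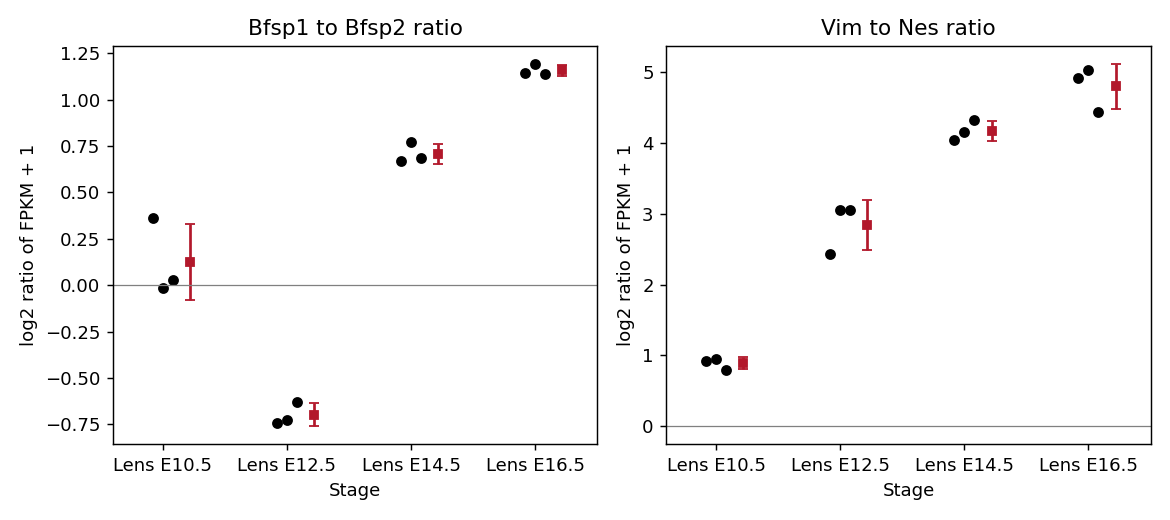
Log2 ratio of FPKM + 1 within each lens library for Bfsp1 over Bfsp2 (left) and Vim over Nes (right), with black points for libraries and red squares with bars for the mean and SD of 3 libraries per stage. The beaded filament ratio dips to -0.70 at E12.5 before reaching 1.16 at E16.5, while the Vim to Nes ratio goes from 0.89 to 4.80.

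Vim encodes vimentin, the filament of mesenchyme and of lens epithelium and young fibres (chr2:13573927-13582826, plus strand). It was at 411, 461 and 415 FPKM in the E10.5 libraries and at 1369, 1795 and 1880 at E12.5. At E14.5 it was at 1757, 2127 and 2442 FPKM, and at E16.5 at 2262, 2351 and 2373. Whole body stood at 602, 578 and 592 FPKM. The E10.5 libraries lay below whole body and all later ones above it, while the E12.5 and E14.5 libraries overlapped, as did those of E14.5 and E16.5.

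Vim rose once, between E10.5 and E12.5, by 3.92-fold (log2 1.96 ± 0.13, limma adjusted p = 2.09e-08). Its later differences were not called: 0.33 ± 0.13 from E12.5 to E14.5 (adjusted p = 0.0595) and 0.16 ± 0.13 from E14.5 to E16.5 (0.536). The first of these passed with a replicate block (adjusted p = 0.0424), without E12.5 replicate 3 (0.0269) and without E14.5 replicate 1 (0.0127), and it turned to -0.31 after quantile normalization (0.0221), so its direction is not settled. E16.5 exceeded E10.5 by 2.44 ± 0.13 (4.24e-10), or 1.42 after quantile normalization.

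Against whole body, Vim was lower at E10.5, with a log2 difference of -0.46 ± 0.13 (adjusted p = 0.00839). It was higher by 1.49 ± 0.13 at E12.5 (1.3e-07), by 1.82 ± 0.13 at E14.5 (7.74e-09), and by E16.5 the excess was 1.98 ± 0.13 (2.63e-09). The E10.5 call was lost for the main transcript alone (-0.19, adjusted p = 0.289). Quantile normalization changed these differences to -0.83, 0.94, 0.63 and 0.59, each still called. Vim was already the 204th most abundant tested gene in the E10.5 lens, and ranked 33rd, 42nd and 46th later. In E10.5 replicate 3, where the mesenchyme sum was 2828 FPKM, Vim was at 415 FPKM, between the other libraries of that stage. In E12.5 replicate 1, where it was 1213, Vim was the lowest of its stage. The part of mesenchyme in the level of Vim was not tested. Without both libraries the difference at E10.5 was -0.44 (adjusted p = 0.0147).

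Nes encodes nestin, the large filament protein of progenitor cells that needs vimentin or a like partner to assemble (chr3:87971078-87980451, plus strand). Its level was 216, 238 and 238 FPKM at E10.5 and 253, 216 and 226 at E12.5, with overlap. At E14.5 it was 106, 119 and 121 FPKM, and at E16.5 73.6, 70.7 and 108. Whole body held 446, 432 and 433 FPKM, above every lens library. The E14.5 and E16.5 libraries overlapped through E16.5 replicate 3.

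Nes fell between E12.5 and E14.5, to 0.498 of its mean (log2 -1.0 ± 0.12, limma adjusted p = 1.95e-05). From E10.5 to E12.5 it did not pass the test (0.004 ± 0.12, adjusted p = 0.986), and it was under 0 in 5 of its alternatives, none of them called. The last step, -0.47 ± 0.12 (adjusted p = 0.0252), was lost in a fit of these 2 groups alone (0.202), for the highest transcript alone (0.0516) and without any 1 of E14.5 replicate 2, E14.5 replicate 3, E16.5 replicate 1 or E16.5 replicate 2 (up to 0.122). From E10.5 to E16.5 Nes fell by 1.47 ± 0.12 on the log2 scale (4.68e-08).

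The sums of several other marker lists were lower at E14.5 and E16.5 than at E10.5. That of 8 neuron markers was not: 23.7 to 33.1 FPKM at E10.5 and 29.8 to 32 at E16.5. Most of the E16.5 sum was Map2 (mean of 20.4 FPKM, 20.7 at E10.5) and Elavl4 (8.39, 1.35 at E10.5). The other 6 neuron markers were all under 1 FPKM at E16.5 and had lower means than at E10.5. For 10 neural retina and neural progenitor markers the sum was 211 to 309 FPKM in the E10.5 libraries, 62.9 to 155 in those of E12.5, 18.8 to 21 in those of E14.5 and 28.1 to 47.4 in those of E16.5. Of the 10, 7 were under 1 FPKM at E14.5 and 4 in the E16.5 lens, Rax, Fabp7 and Neurog2 at both. For 11 endothelium and pericyte markers it was 502 to 545, 269 to 551, 74.1 to 156 and 93.8 to 177, with none under 1 FPKM after E10.5. For 10 macrophage markers it was 129.6 to 156 and 101.9 to 201 at the first 2 stages and 5.9 to 16 at the last 2. The retina sums of E10.5 and E12.5 did not overlap, and Nes had means of 231 and 232 FPKM at these stages. The part of these tissues in the course of Nes was not tested, and bulk levels cannot separate it from Nes of lens cells.

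The Vim to Nes ratio, also free of library scaling, was 1.74 to 1.94 at E10.5 and 5.42 to 8.32 at E12.5. It was 16.6 to 20.2 at E14.5, then 21.9 to 33.2 at the last stage, with no overlap between stages. Whole body stood at 1.34 to 1.37, under all lens libraries. Across the lens stages the log2 ratio differed (F = 141, exact permutation test, p = 6.5e-05, the smallest possible, also after adjustment). E12.5 replicate 1 was the low library of its stage at 5.42 against 8.31 and 8.32. Besides mesenchyme, its marker sums were the highest of the stage for retina (155 FPKM against 91.3 and 62.9) and endothelium (551 against 295 and 269). So was its macrophage sum (201 against 142 and 102), but not that of surface epithelium (19.3 against 49.8 and 17.4). Its lens marker sum was the lowest (16480 against 25794 and 29912). The part of these tissues in the ratio was not tested.

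The direction of Nes against whole body depended on the transcript. At the gene level the log2 difference was -0.92 ± 0.12 at E10.5 (adjusted p = 1.67e-05) and at E12.5 (1.05e-05), -1.92 ± 0.12 at E14.5 (1.95e-09), reaching -2.39 ± 0.12 at E16.5 (1.4e-10). The table lists 2 Nes transcripts, both protein coding and both matching the reference: one of 6126 bases in 4 exons (ENSMUST00000090973) and one of 5958 bases in 5 exons (ENSMUST00000160694). The longer one stood at means of 183, 190, 95.6 and 68.2 FPKM over the lens stages and 97.7 in whole body. The shorter one stood at 48.1, 41.6, 19.7 and 16 FPKM in lens and 339 in whole body.

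A limma fit over all 46569 transcripts, added after these values had been seen, put numbers on this. The shorter transcript was lower than in whole body, with log2 differences of -2.80, -3.0, -4.10 and -4.37 at the 4 stages (SE 0.25 for each, adjusted p from 3.11e-06 to 2.01e-08), beside 13.3%, 15%, 20.3% and 22.1% of transcripts called lower. In the same fit the longer one was higher at E10.5 (0.90 ± 0.14, adjusted p = 0.000383) and E12.5 (0.95 ± 0.14, 0.000175), beside 13.2% and 16% called higher. It was not called at E14.5 (-0.03 ± 0.14, 0.888) and lower at E16.5 (-0.55 ± 0.14, 0.00619). Both transcripts fell from E10.5 to E16.5, by 1.57 ± 0.25 and 1.44 ± 0.14, a span for which the share of all transcripts called was not computed.

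As a share of Nes, the shorter transcript was 77.6% ± 0.462 in whole body. In lens it was 20.8% ± 1.01, 18.0% ± 1.15, 16.8% ± 4.85 and 19.2% ± 5.87 at the 4 stages, and 11.6% to 25.8% over the 12 libraries. Nes thus had a different leading transcript in all lens libraries than in all whole-body libraries. This held for 65 (1.03%) of the 6336 genes that had several transcripts and at least 10 FPKM in every library. The gap of 51.5 points between the closest libraries was the 7th widest among the 6336. Gaps of 10 points or more without overlap were found in 503 of the 6336 (7.94%).

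The coding parts of the Nes transcripts differ within exon 4 of the longer one, where the shorter one leaves out 132 bases, or 44 codons. The shorter one also begins slightly further downstream. The stretch begins with GT and ends with AG, the letters at the ends of introns. It is printed in capitals between 20 bases of flank on each side, since it is the coding difference between the forms.
Nes stretch, chr3:87976581-87976712, plus strand: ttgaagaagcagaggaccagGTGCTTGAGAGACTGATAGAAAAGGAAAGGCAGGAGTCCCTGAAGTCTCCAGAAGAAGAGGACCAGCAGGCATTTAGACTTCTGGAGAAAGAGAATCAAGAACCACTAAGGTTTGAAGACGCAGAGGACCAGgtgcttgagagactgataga
The next 132 bases repeat it almost letter for letter, with 130 identical (98.5%). Both copies follow, with capitals at the 2 positions where they differ.
Nes first copy, chr3:87976581-87976712: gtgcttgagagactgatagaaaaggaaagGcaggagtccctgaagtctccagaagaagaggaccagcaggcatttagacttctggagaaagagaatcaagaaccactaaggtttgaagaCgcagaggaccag
Nes second copy, chr3:87976713-87976844: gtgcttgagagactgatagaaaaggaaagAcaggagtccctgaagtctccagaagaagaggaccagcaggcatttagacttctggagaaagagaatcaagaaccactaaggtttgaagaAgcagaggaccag
A read that lies in one copy and misses both differing positions matches the other equally well, so the assignment of reads between these transcripts, and with it the share, is uncertain. The gene-level sum does not use that split.

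**Figure D3:**
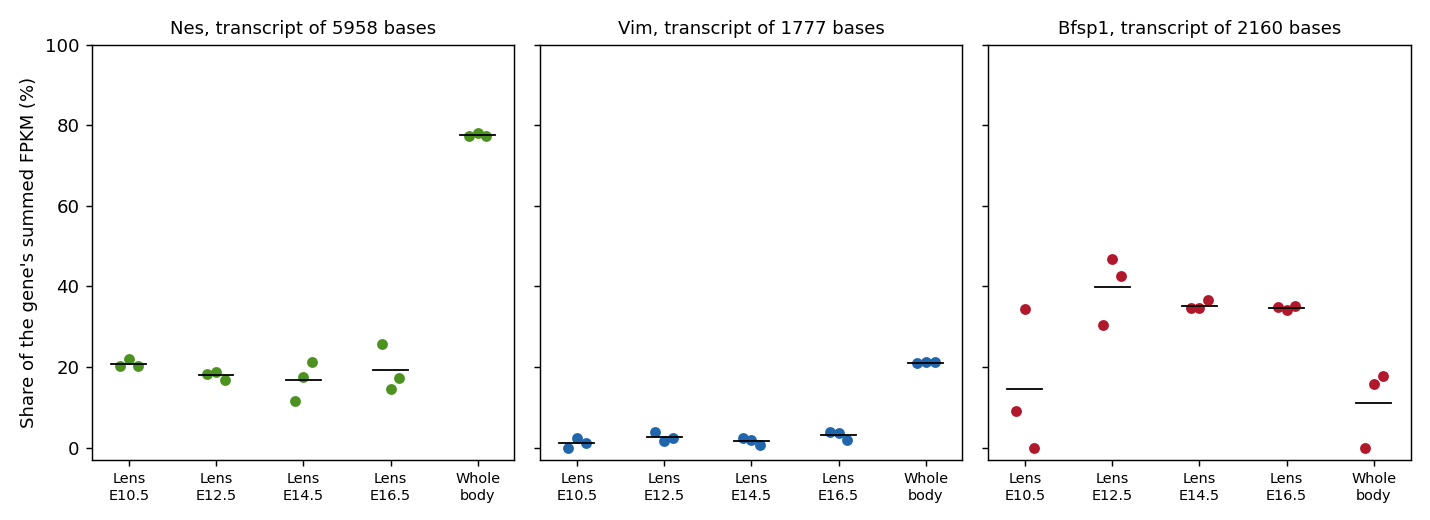
Share (%) of the gene's summed FPKM carried by 1 transcript of Nes, Vim and Bfsp1 in each library, with a bar at each group mean. The Nes transcript of 5958 bases holds 77.6% in whole body and under 26% in every lens library, the Vim transcript of 1777 bases 21.1% against at most 3.87%, and the Bfsp1 transcript of 2160 bases settles near 35% from E14.5 on.

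Vim was listed as 7 transcripts. The main one (ENSMUST00000028062, 2193 bases) held 82.4% to 84.7% of the gene at the lens stages by mean and 68.4% ± 0.322 in whole body. A transcript that leaves out exon 8 (ENSMUST00000193675, 1777 bases) held 21.1% ± 0.0860 in whole body, at 127, 122 and 125 FPKM. In lens its mean share was 1.15%, 2.69%, 1.71% and 3.09%, and no library exceeded 3.87%. The gap of 17.2 points was the 214th widest of 6336. In the transcript fit, its difference from whole body was -4.95 ± 0.68 at E10.5 (adjusted p = 0.000131), -1.53 ± 0.68 at E12.5 (0.111), -1.92 ± 0.68 at E14.5 (0.038) and, by E16.5, -0.86 ± 0.68 (0.333), so only E10.5 and E14.5 were called. The main transcript was not called at E10.5 (-0.19 ± 0.13, 0.333), where the gene as a whole was lower.

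Exon 8 of Vim has 86 bases, not a whole number of codons, and the coding part of the last exon is 39 bases with it and 8 bases without it. The shorter transcript also begins further downstream, so the share does not rest on exon 8 alone. The exon is shown in capitals because leaving it out changes the coding end.
Vim exon 8, chr2:13581613-13581698, plus strand: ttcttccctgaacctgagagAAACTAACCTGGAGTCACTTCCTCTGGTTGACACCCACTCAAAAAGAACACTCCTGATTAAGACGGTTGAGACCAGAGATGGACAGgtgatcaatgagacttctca

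Together the 4 genes held 0.089% ± 0.003 of a library's FPKM at E10.5 (SD, n = 3) and 0.245% ± 0.028 by E12.5. The share was 0.535% ± 0.084 at E14.5, reaching 1.06% ± 0.186 at E16.5, against 0.143% in each whole-body library. Their make-up turned over. At E10.5 Vim was 64.4% and Nes 34.6% of the 4, with Bfsp1 and Bfsp2 at 0.531% and 0.480%. At E12.5 Vim held 74.4%, its highest share, and Bfsp2 (9.30%) exceeded Bfsp1 (5.74%). At E14.5 Bfsp1 (42.8%) had passed Vim (29.5%), and at E16.5 the pair reached 58.6% and 26.2%, leaving 14.7% to Vim and 0.543% to Nes. Whole body was 57.4% Vim and 42.5% Nes. From E12.5 on the mean of Vim went from 1681 to 2328 FPKM while its share of the 4 went from 74.4% to 14.7%.

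**Figure D4:**
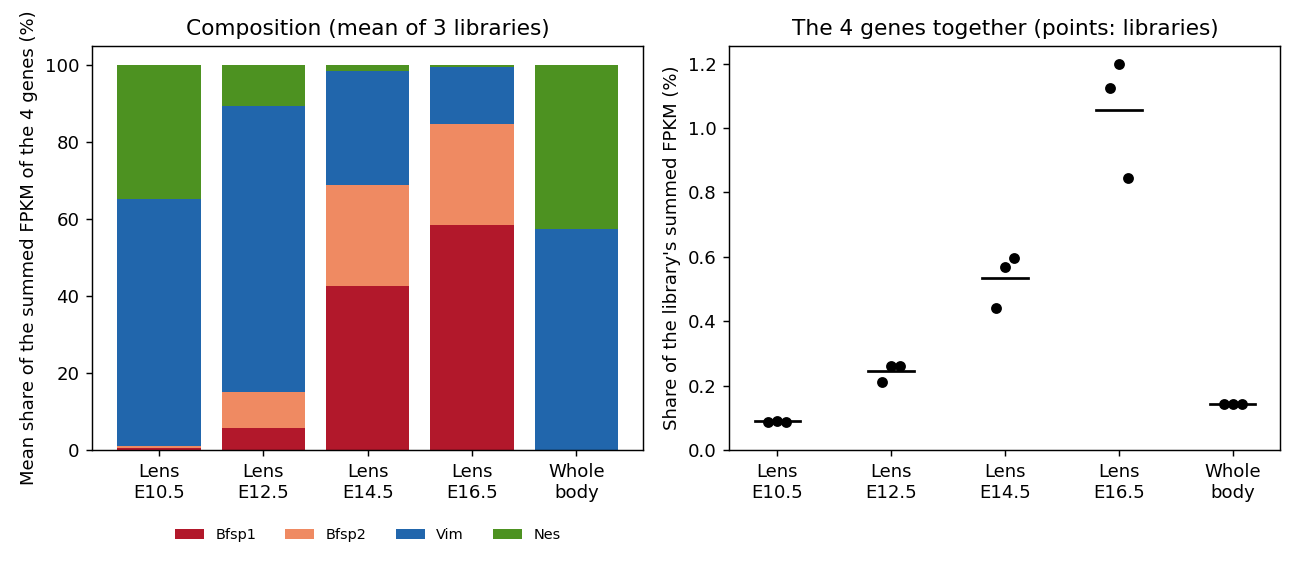
Left, mean share (%) of each gene in the summed FPKM of the 4 genes, as stacked bars of 3 libraries per group. Right, the 4 genes together as a share (%) of each library's summed FPKM, with points for libraries and a bar at the mean: E16.5 averages 1.06% and whole body 0.143%.

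The other intermediate filament genes give the setting. Of the 9 type III and IV genes tested (Nefh is not among those analysed here), 3 rose from E10.5 to E16.5, 5 fell and 1 was not called, beside 37.2% of all genes higher and 36.7% lower. Their median log2 difference was -0.38, against -0.01 for all genes. Vim and Nes are among them. Synm, which encodes synemin, a large protein that co-assembles with vimentin, stood at 2.79, 2.18 and 2.92 FPKM at E10.5 and at 625, 790 and 623 at E16.5. It rose by 7.55 ± 0.22 (adjusted p = 5.61e-13), more than Vim and less than either beaded filament gene, with 7.95 FPKM in whole body.

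Gfap, the astrocyte filament gene, was low but present in lens, from a mean of 2.68 FPKM at E10.5 to 9.60 at E16.5, against 0.0170 in whole body (log2 difference 3.37 ± 0.17 at E16.5, adjusted p = 1.26e-10). Des, the muscle filament gene, fell from 2.13 to 0.05 FPKM (-1.48 ± 0.26, 9.6e-05). The neurofilament genes Nefl and Nefm were at 0.220 and 0.707 FPKM at E16.5 against 125 and 217 in whole body (-6.69 ± 0.31 and -7.03 ± 0.43). The falls of Nefl, Nefm and Prph from E10.5 to E16.5 were not called after quantile normalization, which left 2 of the 5, Nes and Des.

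Keratins are the filaments of surface epithelium. Of 12 tested, 6 fell from E10.5 to E16.5, 4 rose and 2 were not called, beside 36.7% of all genes lower and 37.2% higher, with a median of -0.51. With crystallins left out of the totals 3 rose and 6 fell, and after quantile normalization 4 and 5. Krt8 went from 94.8, 98.3 and 134 FPKM to 0.320, 0.340 and 0.110 (-6.44 ± 0.34, adjusted p = 3.04e-10). Its partner Krt18 went from 102 ± 18.1 to 1.36 ± 0.105 FPKM (-5.43 ± 0.27, 1.72e-10). Both are also among the 9 surface epithelium markers, whose sum was 290 to 382 FPKM in the E10.5 libraries and 2.1 to 4.4 in those of E16.5, with 8 of them under 1 FPKM there. The part of that tissue in the fall was not tested.

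Krt40 and Krt79 rose, from 0 in all 3 libraries to 10.4, 13.1 and 8.82 FPKM (3.54 ± 0.20, adjusted p = 6.53e-10) and from 0.0470 to 2.27 FPKM (1.64 ± 0.19). The nuclear lamins Lmnb1 and Lmnb2 fell by 2.35 ± 0.13 and 1.33 ± 0.09, Lmnb1 from 359 ± 37.3 to 69.6 ± 8.53 FPKM, while Lmna rose by 0.87 ± 0.17 (0.000327). These 3 lamins had a median of -1.33, against -0.01 for all genes.

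**Figure D5:**
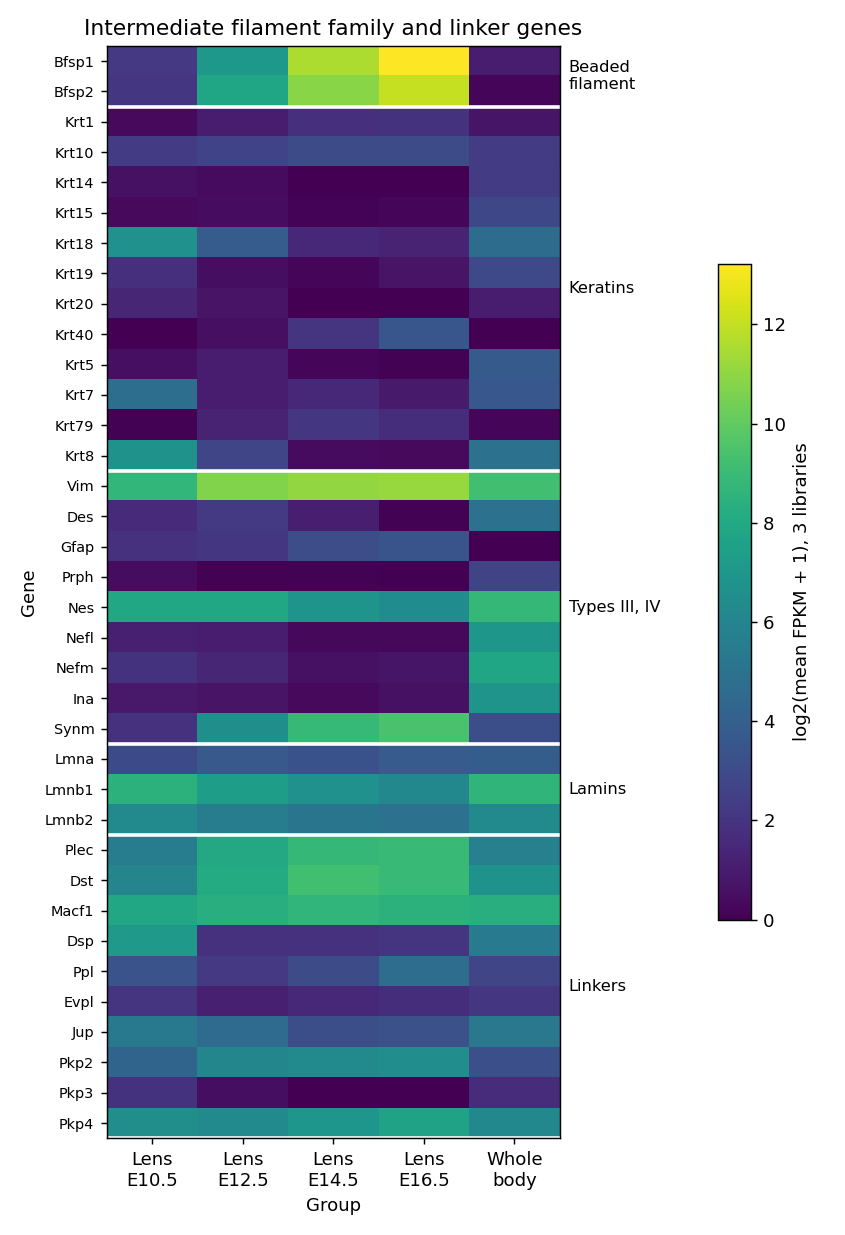
Heat map of log2(mean FPKM + 1) for the beaded filament genes, 12 keratins, the 9 type III and IV genes, 3 lamins and 10 linker genes (rows) in the 5 groups (columns). Bfsp1, Bfsp2 and Synm brighten from E10.5 to E16.5, Krt8, Krt18 and Dsp darken, and Nefl, Nefm and Ina are bright in whole body alone.

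Linker proteins tie filaments to junctions and to other parts of the cytoskeleton. Of 10 tested, 6 rose from E10.5 to E16.5, 3 fell and 1 was not called, beside 37.2% of all genes higher and 36.7% lower, with a median of 0.86. Plec, which encodes plectin and cross-links vimentin, rose from 46.4 ± 8.40 to 470.0 ± 39.6 FPKM (3.32 ± 0.15, adjusted p = 3.85e-11). Dst rose from 63.1 ± 21 to 498 ± 71.3 FPKM (3.0 ± 0.25). The desmosome genes Dsp and Jup fell, Dsp from 140.1 ± 32.7 to 3.06 ± 0.221 FPKM (-5.10 ± 0.19, 8.28e-12) and Jup by 2.08 ± 0.20. Most of the fall of Dsp was between E10.5 and E12.5 (-5.29 ± 0.19), as for Krt8 (-4.25 ± 0.34). Macf1, counted among the 6, was not called when crystallins were left out of the totals or after quantile normalization, and Evpl, not called here, was lower with crystallins left out (-0.64).

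Of 10 fibre membrane and chaperone partners of the beaded filament, 9 rose from E10.5 to E16.5 and Actn1 was not called. Actn1 was lower when crystallins, and with them the partner Cryab, were left out (-0.51), or after quantile normalization (-0.43). Over all genes 37.2% were higher and 36.7% lower. The median of the partners was 6.17, against -0.01 for all genes. Lim2, a fibre membrane protein, rose by 11.12 ± 0.16 (adjusted p = 1.25e-15) and Mip, the water channel aquaporin 0, which binds the beaded filament, by 9.70 ± 0.19 (9.26e-15). Mip was at 7.83 ± 0.288 FPKM at E10.5 and already at 1809 ± 669 at E12.5, when Bfsp1 was at 132 ± 46.1. Its log2 step to E12.5, 7.62 ± 0.19, exceeded those of both beaded filament genes, though the difference between genes was not tested. Against whole body at E16.5 all 10 were higher, beside 36.8% of all genes higher and 43.4% lower. Actn1, however, turned from 0.22 to -0.31 when crystallins were left out and to -0.17 after quantile normalization. The chaperone Cryaa was listed at 0 beside very high replicates and was not tested.

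Proteases known to cut intermediate filaments are described by 2 genes. Capn3, whose lens form is a calpain, rose from 18.6 ± 3.32 FPKM at E10.5 to 3282 ± 1297 at E12.5 and 9607 ± 952 at E14.5, with 7788 ± 693 at E16.5 (8.64 ± 0.22, adjusted p = 1.34e-13). Casp6 fell from 27.3 ± 2.52 to 7.15 ± 1.33 FPKM (-1.80 ± 0.20, 7.4e-07).

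Kinases that phosphorylate these filaments, many of them in mitosis, split evenly: 4 of 8 rose and 4 fell from E10.5 to E16.5, beside 37.2% and 36.7% of all genes, with a median of -0.99. The rises were small, 0.56 ± 0.08 for Pak2 and 0.43 ± 0.12 for Cdk5. With crystallins left out none of the 4 was called higher and Rock1 turned lower (-0.21), and after quantile normalization Rock1 and Rock2 were not called. Pak1 fell by 4.17 ± 0.27 (adjusted p = 2.3e-09) and Plk1 by 2.42 ± 0.12 (1.72e-10). Cdk1, the mitotic kinase that acts on vimentin and nestin, differed by -0.80 ± 0.14 between E14.5 and E16.5 (0.002).

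Of 12 transcription factors of the lens and of the nestin enhancer, 7 rose from E10.5 to E16.5, 4 fell and 1 was not called, beside 37.2% of all genes higher and 36.7% lower, with a median of 0.57. With crystallins left out 5 rose and 5 fell, and after quantile normalization 6 and 5. Hsf4, a heat shock factor of the lens, was at 0.180, 0.120 and 0.220 FPKM at E10.5, 43.3, 83.1 and 86.5 at E12.5, and 397, 462 and 347 at E16.5 (8.42 ± 0.19, adjusted p = 4.79e-14). At E12.5 and E16.5 its lowest library was also the lowest for Bfsp1 and Bfsp2, but at E10.5 its lowest library was the highest for both. A link between Hsf4 and these genes was not tested. Sox1 rose by 3.90 ± 0.16. Sox2 and Sox11, factors of neural progenitors known to act with nestin, fell by 2.41 ± 0.16 and 4.38 ± 0.19. Sox2 fell by 2.47 ± 0.16 between E10.5 and E12.5, and Nes was not called at that step. A part of Sox2 in the course of Nes was not tested.

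Genes were also ranked by likeness to each member, as Pearson's r of log2(FPKM + 1) over the 12 lens libraries among 10354 genes that averaged 10 FPKM or more in some lens stage. The libraries share stage, pool and scaling, so r is descriptive. For Bfsp1 the closest were Crygf (r = 0.9989), a gamma-crystallin, then Mocs2, 5830418P13Rik, Rufy3 and Hfe. For Bfsp2 they were the gamma-crystallins Crygc (0.9982), Crygd and Crygb, then Tdrd7, an RNA granule protein whose loss causes cataract, and Nfic. Bfsp1 and Bfsp2 had r = 0.9906 with each other and were only 128th and 180th in the other's order.

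For Vim the closest were Tmem176b (0.9959), Iqce, Kcnj12, Stac2 and Shc3. The mean of each rose most from E10.5 to E12.5 and less after that: Kcnj12 went from 14.0 FPKM at E10.5 to 93.1, 136 and 148. For Nes they were Ahcy (0.9893), Shc2, Acads, Mcm2 and Tspan18. Mcm2, a part of the helicase that licenses DNA replication, went from 256 to 223, 156 and 116 FPKM over the stages. Nes had negative r with Bfsp1 (-0.8895), Bfsp2 (-0.8269) and Vim (-0.6657).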

How the data were processed

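The deposited values are FPKM per assembled transcript, which the authors derived on mm10. The submitters' processing notes name TopHat2 2.0.9, Trimmomatic, Cuffnorm and Cufflinks. Read depth and the normalization setting are not given in the sources used here, so depth is unknown and no interval rests on it. FPKM was summed per symbol over 48306 transcripts, less 172 of class x (exon overlap on the other strand). Genes with 1 FPKM or more in 3 of the 15 libraries were kept. Cryaa, Cryba1 and Nufip2, at 0 beside a replicate of 50 FPKM or more, were not tested, which left 14532. limma 3.58.1 (R 4.3.3) was fitted to log2(FPKM + 1) of all 15 libraries with a trended prior and Benjamini-Hochberg adjustment, and was tested on simulated data. The 2 ratios had exact permutation tests. No block was used, because the labels do not say that a replicate number marks a shared litter or day. Deviations of same-numbered libraries from their group means had r from -0.0946 to 0.2373 over 30 pairs. The 4 pairs above 0.1 were all between lens stages from E12.5 on. Members and gene lists were chosen with earlier results of these data known. From each list, up to 2 called genes with the highest and 2 with the lowest fold per comparison were named, other names being chosen after values were seen, as were the transcripts compared. Loci are from GENCODE vM21. Alternatives covered pseudocount, filter, scaling, transcript choice, block, prior, groups fitted and each library. The alternative without E10.5 replicate 3 and E12.5 replicate 1 was added after seeing the data. P-values measure the spread between libraries labelled biological replicates. Some genes of the lists are not reported here.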

Additional observations from a re-analysis of the deposited data

Results flagged for a closer look

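Against the same whole-body libraries, Vim was lower in the E10.5 lens and higher in the E16.5 lens, with every library of each stage on its own side. The change in the difference was 2.44 on the log2 scale, which is the E16.5 against E10.5 contrast itself (limma adjusted p = 4.24e-10).

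The Nes transcript of 6126 bases was higher than whole body in every E10.5 library and lower in every E16.5 library, a change of -1.44 (adjusted p = 4.22e-06 in the transcript fit). The split of reads between the 2 Nes transcripts is uncertain, as described above, and the gene as a whole was lower than whole body at all 4 stages. For the Vim transcript of 574 bases, at 3.59 FPKM at E10.5, 31.4 at E16.5 and 6.87 in whole body, the change was 2.85 (1.81e-07).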

How the results depend on the processing

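Over 38 results and 930 alternative values, 910 kept their direction and their side of the threshold, including 225 of 225 each for Bfsp1 and Bfsp2, 219 of 225 for Vim and 211 of 225 for Nes. Leaving crystallins out of the totals shifted the median of all genes by up to -0.50 (E16.5 against whole body), and quantile normalization by up to 0.11.

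For Nes from E10.5 to E12.5 (0.004), the value was -0.138 with crystallins left out, -0.185 after quantile normalization, -0.036 without the 2 libraries richest in mesenchyme markers, and -0.06 to 0.052 with 1 library left out, none called. Vim from E12.5 to E14.5 was -0.313 after quantile normalization, 0.327 with the replicate block, where it was called, and 0.186 to 0.452 with 1 library left out. Vim from E14.5 to E16.5 was -0.039 after quantile normalization. Nes from E14.5 to E16.5 was -0.473 in a fit of those groups alone and -0.514 for the highest transcript, neither called, and -0.666 to -0.362 with 1 library left out. With the highest transcript only, Nes against whole body was 0.895 at E10.5, 0.949 at E12.5 and -0.032 at E14.5, and Vim at E10.5 was -0.194. These changes with the highest transcript follow from the transcript shares given above, and for the others the cause was not tested. The replicate block changed no other call among the members. Of the 30 same-numbered pairs, 4 correlated above 0.1. Sequencing depth is unknown, so values near 0 carry no floor.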
